A study of Oryza sativa Indica Group with 24 samples.

Results

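RD57 is an indica rice cultivar with high-amylose grain, and the comparison concerned its grain between 14 and 21 days post-anthesis (DPA). Its members were the 6 RNA-seq libraries labelled RD57 at 14 DPA or RD57 at 21 DPA, 3 biological replicates a day, of the 24 of the series. The other 18 libraries were RD57 at 7 and 28 DPA and the waxy (glutinous) cultivar RD6 at the same 4 days, again as 3 libraries a group. The plants were untreated, grew in pots in a net house under natural light, and the grains came from the superior position of tagged main-stem panicles, so cultivar and day were what separated the groups. Each library was described by FPKM (fragments per kilobase of transcript, scaled between libraries by Cuffnorm) of 26362 genes. The genes fell into 4 classes by their values in the 6 libraries. Of these, 18504 were above 0 in all 6, 2867 reached 0 (above 0 in every 14 DPA library and 0 in every 21 DPA library), 1732 left 0 (the opposite), and 3259 were at 0 in all 6.

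During grain filling, the cereal endosperm imports sucrose and turns it into starch granules, while it packs storage proteins into protein bodies. ADP-glucose is the glucosyl donor of starch synthesis, the granule-bound starch synthase makes amylose, and soluble synthases with branching enzymes make amylopectin. As the grain passes from filling to maturation it dries, and abscisic acid (ABA) signalling governs desiccation tolerance and dormancy of the seed.

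The labels call the tissue endosperm, whereas the RNA was extracted from grains. Several genes of starch and storage protein synthesis were abundant in all 6 libraries. By mean FPKM, GBSSI ranked 14 of all genes at 14 DPA and 26 at 21 DPA. The storage globulin gene CRA1-like XLOC_009355 ranked 16 and 17. CRA1-like XLOC_012528 went from rank 32 to 54 and XLOC_007189 from 38 to 58. Others lost more rank: AgpS2b went from 40 to 206, CRA1-like XLOC_009350 from 53 to 169 and XLOC_007132 from 232 to 1608. Names of marker genes for embryo, aleurone or pericarp were not at hand, so the share of those tissues was not tested. Replicates differed by a median SD of 0.28 on the log2(FPKM + 0.5) scale at 14 DPA and 0.19 at 21 DPA, over the genes above 0 in all 6. Mapped reads per library are stated by the study, but the deposited table does not hold the reads behind each gene's value, so no counting error is given. A value of 0 means that the gene did not pass a limit of 0.5 FPKM in enough replicates of that group, not that the transcript was absent, and a replicate that failed in a group that passed was filled with the mean of the other 2. Such filled values were found in 10.6% of the genes above 0 in all 6, 40.3% of those reaching 0 and 37.0% of those leaving 0, and for them the spread is understated.

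The most abundant transcripts held less of the total in each library at 21 DPA than in any at 14 DPA. The 10 most abundant genes of each library held 39.7%, 39.4% and 40.6% of the summed FPKM in the 3 libraries at 14 DPA, and 15.8%, 13.5% and 18.8% at 21 DPA. The 100 most abundant held 62.6%, 62.1% and 62.6% at 14 DPA and 49.0%, 43.0% and 50.8% at 21 DPA. The days did not overlap in either share, and an exact two-sided permutation test gave p = 0.1, the smallest value that 3 against 3 libraries allow. The summed FPKM itself was 1670000, 1730000 and 1750000 at 14 DPA and 967000, 831000 and 998000 at 21 DPA (exact permutation p = 0.1). The study does not state which scaling Cuffnorm applied, so the lower sum cannot be read as less RNA or less depth. The median FPKM of the genes above 0 in all 6 stood close by comparison, at 9.09 ± 0.20 (SD, n = 3) and 8.67 ± 0.22, with p = 0.1 in the same exact permutation test. Of the 100 genes with the highest mean at 14 DPA, 54 were also among the 100 highest at 21 DPA, and 6 of the 10 highest were shared. In bulk grain RNA, fewer cells of a type and less RNA per cell cannot be told apart.

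More genes fell than rose. A gene was called when limma, fitted to log2(FPKM + 0.5) of all 24 libraries, gave an adjusted p of at most 0.05 and a log2 fold change (log2FC, 21 over 14 DPA) of at least 2 in size. By this rule 3134 genes were lower at 21 DPA, 11.9% of those tested, and 1320 were higher, 5.01%. The adjusted p alone was passed by 63.1% of all genes, so the size limit decided most calls. Among the genes above 0 in all 6 libraries, 1685 fell (9.11%) and 760 rose (4.11%), with median sizes of 2.60 and 2.45 on the log2 scale. A log2FC of at least 3 in size was reached by 503 of the genes that fell and 147 of those that rose. The median log2FC over all 18504 genes above 0 was -0.08, with quartiles of -0.93 and 0.69. Lower calls made up 70.4% of all calls, and 57.8% (2418 lower, 1769 higher) when the libraries were quantile-normalised, a scaling that moved this median to 0.16. Median-ratio scaling left the share at 70.4% and the median at -0.08. The changes below are given without rescaling.

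**Figure D1:**
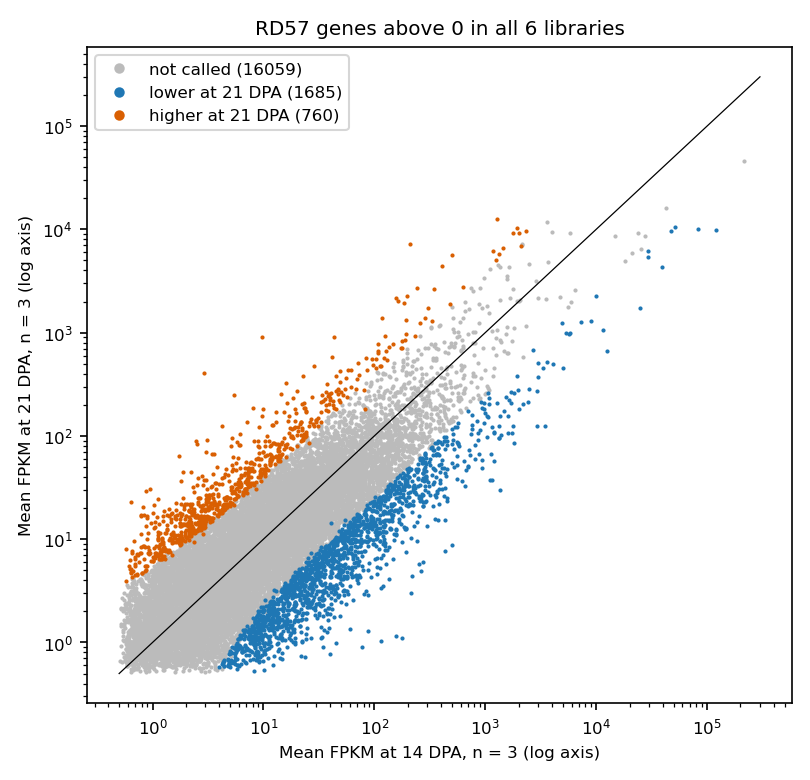
Mean FPKM of each gene above 0 in all 6 RD57 libraries at 14 DPA (horizontal) and 21 DPA (vertical), both on log axes and each a mean of 3 libraries, with the diagonal of equal values. The 1685 genes called lower lie below the diagonal and the 760 called higher above it.

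The share of genes called grew with abundance, for both directions. Genes were binned by their mean FPKM over the 6 libraries. Of 8870 genes between 1 and 10 FPKM, 5.07% fell and 3.06% rose. Of 1156 genes between 100 and 1000 FPKM, 23.4% fell and 7.79% rose, and of 118 genes at 1000 FPKM or more, 28.8% fell and 18.6% rose. The median log2FC was 0.04 in the bin of 1 to 10 FPKM, -0.17 between 10 and 100, -0.72 between 100 and 1000 and -0.46 in the highest bin. No gene of the 450 under 1 FPKM was called, and the pseudocount leaves no room there for a log2FC of 2. Since no value above 0 was under 0.5 FPKM, the lowest genes of the bin from 1 to 10 FPKM had no room for it either. Part of the lower share called in that bin was thus fixed by the rule. Of the 100 most abundant genes at 14 DPA, 51 fell and 6 rose, whereas of the 100 most abundant at 21 DPA, 13 fell and 27 rose. Since these lists were ranked by the same values, the counts describe them and test nothing.

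**Figure D2:**
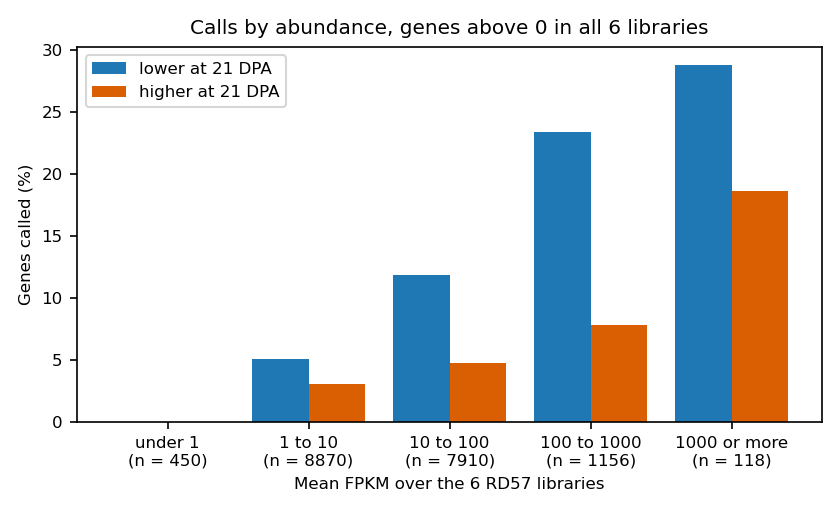
Percentage of genes called lower or higher at 21 DPA (vertical, from 0) by mean FPKM over the 6 RD57 libraries (horizontal, number of genes under each bin), for genes above 0 in all 6. Lower calls rise from 5.07% between 1 and 10 FPKM to 28.8% at 1000 FPKM or more, and higher calls from 3.06% to 18.6%.

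The table names no genes, so 26 identifiers were matched to names by labels of the study's networks and heat maps, read by eye. They come from a temporal profile that the study assigned as active at 14 DPA (18 in both cultivars, 4 in RD57 alone, 4 in RD6 alone), so their fall to 21 DPA is not independent evidence of a direction. Of the 26, 19 were called lower, none higher and 7 were not called, and their median log2FC was -2.77, beside -0.08 for all genes above 0 in the 6 libraries. In all 26, each 21 DPA library was below each 14 DPA library, as held for 36.4% of all genes, while 29% of all genes were higher without overlap. RD57 21 DPA replicate 2 had the lowest value of its day in 20 of the 22 named genes above 0, and in 35.3% of all genes above 0. The same library was lowest of its day in 67.7% of the 1685 genes above 0 that fell, and RD57 14 DPA replicate 1 was lowest of its day in 15 of the 22 named genes (68.2%) and 62.1% of those 1685. What set these libraries apart was not tested. Without RD57 21 DPA replicate 2, 4202 genes were called, and without RD57 14 DPA replicate 1, 4857, in place of 4454.

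**Figure D3:**
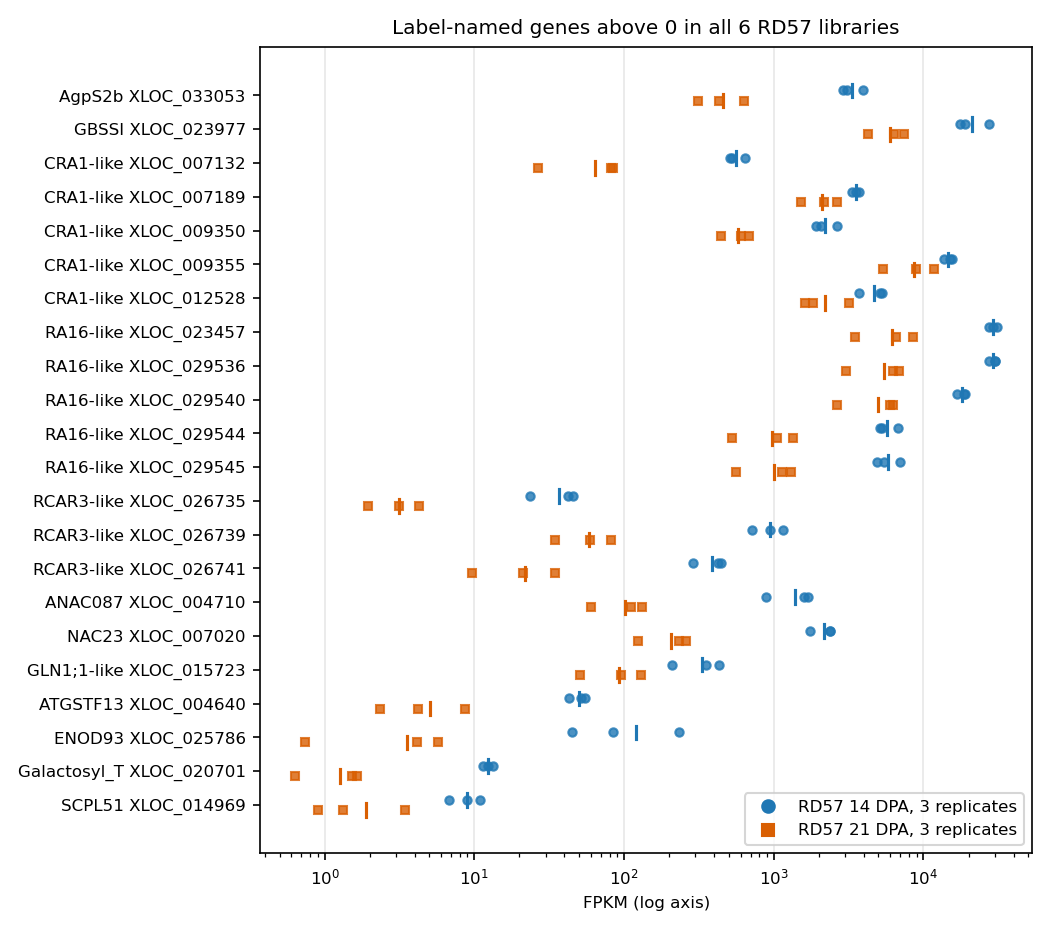
FPKM (horizontal, log axis) of the 22 named genes above 0 in all 6 RD57 libraries, with circles for the 3 replicates at 14 DPA, squares for the 3 at 21 DPA and a vertical bar for each mean. In each gene the days do not overlap, with the widest gap between means in ENOD93 (120.8 against 3.55 FPKM) and the smallest in CRA1-like XLOC_007189 (3537 against 2105 FPKM).

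Of the genes of starch synthesis, AgpS2b (XLOC_033053) encodes a small subunit of ADP-glucose pyrophosphorylase, the enzyme that supplies ADP-glucose. Its FPKM was 2880, 3936 and 3104 in the 14 DPA libraries and 431, 313 and 630 in the 21 DPA libraries. AgpS2b thus fell, with a mean 7.22-fold higher at 14 DPA and a log2FC of -2.90 (SE 0.63, limma adjusted p = 4.4e-04). GBSSI (XLOC_023977), the Waxy gene for the granule-bound starch synthase that makes amylose, had FPKM of 18968, 27204 and 17504 at 14 DPA and 6308, 4240 and 7362 at 21 DPA. The days did not overlap in GBSSI, and its log2FC of -1.84 (SE 0.77) passed the adjusted p (0.043) but not the size limit. With any 1 of the 6 libraries left out, GBSSI no longer passed the adjusted p, at 0.056 to 0.13. Under quantile normalisation its log2FC was -0.94 (adjusted p = 0.32), and its adjusted p ranged from 0.033 to 0.74 over the alternative settings. The highest came when only the 6 libraries were fitted, where the log2FC was unchanged and the SE was 3.34. As a share of the summed FPKM, GBSSI went from 1.24% ± 0.30 (SD, n = 3) to 0.633% ± 0.115 and AgpS2b from 0.192% ± 0.030 to 0.0484% ± 0.0131, both with p = 0.1 in the exact permutation test. At 28 DPA the mean FPKM was 1113 ± 30.5 for GBSSI and 25.6 ± 5.3 for AgpS2b (n = 3).

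The 5 CRA1-like genes carry the name of the cruciferin storage globulins of Arabidopsis, to which the rice glutelins are related. Only XLOC_007132 was called: its FPKM was 646, 524 and 507 at 14 DPA and 83.9, 26.8 and 81.6 at 21 DPA, with a log2FC of -3.28 (SE 0.73, adjusted p = 5.9e-04). The other 4 had log2FC from -1.94 to -0.78 with adjusted p from 0.17 to 0.60. For XLOC_009350 (-1.94), the SE of 1.18 and adjusted p of 0.17 became 0.29 and 0.0027 when only the 6 libraries were fitted, still short of the size limit. The most abundant, XLOC_009355, had FPKM of 13622, 15498 and 14940 at 14 DPA and 8854, 5346 and 11829 at 21 DPA. Its days did not overlap, but its log2FC of -0.83 had an SE of 1.15 (adjusted p = 0.60), and it was -0.06 under quantile normalisation. That SE came from all 24 libraries, in which the mean of XLOC_009355 in RD6 at 28 DPA was 3096 ± 5230 FPKM (SD, n = 3). When only the 6 libraries were fitted, its SE was 3.33, and those of XLOC_012528 and XLOC_007189 were 0.70 and 0.57, in place of 1.14 and 0.92. None of these 3 passed the adjusted p there. What set these SE was not tested. Summed, the 5 CRA1-like genes held 1.45%, 1.55% and 1.48% of the summed FPKM at 14 DPA and 1.398%, 1.08% and 1.84% at 21 DPA. These shares overlapped (exact permutation p = 0.7), in contrast to those of GBSSI and AgpS2b. At 28 DPA the mean of XLOC_009355 was 28.9 ± 3.3 FPKM (n = 3), against 8676 ± 3245 at 21 DPA.

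The 5 RA16-like genes are named after a rice seed allergen of the alpha-amylase/trypsin inhibitor family, small proteins that accumulate in the endosperm. Of the 5, 4 were called lower. RA16-like XLOC_029536, 8th in rank at 14 DPA, had FPKM of 27478, 30082 and 30162 at 14 DPA and 6285, 3050 and 6890 at 21 DPA. Its log2FC was -2.52 (SE 0.68, adjusted p = 0.003). XLOC_029544 (-2.65) and XLOC_029545 (-2.61) fell by similar amounts, with adjusted p of 0.0029 and 0.0012. RA16-like XLOC_023457 fell by 2.33 on the log2 scale (SE 0.88, adjusted p = 0.026), a call lost without RD57 21 DPA replicate 2 (-1.97, adjusted p = 0.10) and, at adjusted p of 0.055 and 0.059, without RD57 14 DPA replicate 2 or replicate 3. The calls of XLOC_029536 and XLOC_023457 were also lost under quantile normalisation, at -1.62 and -1.35. When only the 6 libraries were fitted, they were lost at adjusted p of 0.67 and 0.74. Their log2FC was unchanged in that fit, but the SE were 3.86 and 4.23, in place of 0.68 and 0.88. The same fit gave XLOC_029544 and XLOC_029545 SE of 0.56 and 0.57. In that fit GBSSI, XLOC_009355 and XLOC_029540 also had large SE, of 3.34, 3.33 and 2.59. With the former pair, they ranked from 8 to 16 at 14 DPA, against 27 and 26 for XLOC_029544 and XLOC_029545. What raised these SE was not tested. XLOC_029540 had a log2FC of -1.97 (adjusted p = 0.030), just short of the size limit, and went to -1.28 (adjusted p = 0.15) under quantile normalisation. It was called without RD57 21 DPA replicate 1 (-2.19) or replicate 3 (-2.15). It lost the adjusted p without RD57 21 DPA replicate 2 (-1.56, adjusted p = 0.13). The same held without RD57 14 DPA replicates 1, 2 and 3 in turn (0.052, 0.066 and 0.064) and when only the 6 libraries were fitted (0.60). Together the RA16-like genes held 4.90%, 5.13% and 5.35% of the summed FPKM at 14 DPA and 2.22%, 1.24% and 2.39% at 21 DPA, with no overlap (exact permutation p = 0.1).

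All 3 genes named RCAR3-like, after a family of ABA receptors, fell. RCAR3-like XLOC_026739 had FPKM of 719, 942 and 1154 at 14 DPA and 59.3, 34.7 and 81.4 at 21 DPA, a log2FC of -4.05 (SE 0.53, adjusted p = 1.7e-06). XLOC_026741 had FPKM of 290, 423 and 442 at 14 DPA and 21.1, 9.59 and 34.5 at 21 DPA, a log2FC of -4.27 (SE 0.66, adjusted p = 1.2e-05). XLOC_026735, the least abundant, went from a mean of 37.0 ± 11.7 to 3.12 ± 1.15 FPKM (SD, n = 3), a log2FC of -3.37 (adjusted p = 2.6e-05). The 3 calls held under every alternative setting and without each library in turn. By 28 DPA XLOC_026735 was listed at 0 and the other pair had means of 2.63 and 1.00 FPKM.

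NAC23 (XLOC_007020) and ANAC087 (XLOC_004710) encode transcription factors of the plant NAC family. NAC23 had FPKM of 1756, 2373 and 2382 at 14 DPA and 259, 123 and 233 at 21 DPA, and ANAC087 had 888, 1581 and 1681 at 14 DPA and 112, 59.9 and 132 at 21 DPA. Both fell, with log2FC of -3.46 (SE 1.35, adjusted p = 0.031) for NAC23 and -3.79 (SE 1.01, adjusted p = 0.0028) for ANAC087. The SE of NAC23 was 1.35 in the fit to 24 libraries and 0.34 when only the 6 libraries were fitted (adjusted p = 6.3e-04). In RD6 at 28 DPA, which enters the former fit, its mean was 177 ± 304 FPKM (SD, n = 3). In the fit to 24 libraries its adjusted p was 0.091 without RD57 21 DPA replicate 2, 0.053 without RD57 21 DPA replicate 3, 0.051, 0.069 and 0.069 without RD57 14 DPA replicates 1, 2 and 3, and 0.060 under quantile normalisation. Means at 28 DPA were 1.99 FPKM for NAC23 and 0.618 for ANAC087.

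The pair of genes named MBD1, for a protein with a methyl-CpG-binding domain, and zf-RING_2, named for a RING finger domain, were low at 14 DPA and listed at 0 in the 3 libraries of 21 DPA. MBD1 XLOC_023115 had FPKM of 3.82, 2.72 and 10.003 at 14 DPA, and zf-RING_2 XLOC_004080 had 4.19, 4.23 and 13.4. MBD1 XLOC_021323 had 2.14, 7.44 and 12.7, of which 7.44 equals the mean of the others and was a filled value. All 3 were called lower, and no fold is given against a listed 0. In RD6 these 3 genes were above 0 at both days: MBD1 XLOC_021323 had means of 269 ± 78 FPKM at 14 DPA and 51.4 ± 28.1 at 21 DPA (SD, n = 3).

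GLN1;1-like (XLOC_015723) is named after a cytosolic glutamine synthetase, which assimilates ammonium. Its FPKM was 432, 353 and 208 at 14 DPA and 131, 50.6 and 95.2 at 21 DPA, and its log2FC of -1.88 (SE 0.70, adjusted p = 0.024) missed the size limit. It passed that limit without RD57 21 DPA replicate 1 (-2.18) or RD57 14 DPA replicate 3 (-2.18). It lost the adjusted p without RD57 21 DPA replicate 2 (-1.50, adjusted p = 0.11) and under quantile normalisation (-1.35, adjusted p = 0.12). The same held without RD57 14 DPA replicate 1 (-1.65, adjusted p = 0.079) or replicate 2 (-1.80, adjusted p = 0.061). Of the remaining named genes, ENOD93 (XLOC_025786), an early nodulin, had FPKM of 44.8, 84.4 and 233 at 14 DPA and 4.16, 0.734 and 5.74 at 21 DPA. ENOD93 fell by 4.87 on the log2 scale (SE 0.59, adjusted p = 5.9e-07), the largest fall among the 22 label-named genes above 0, although its 14 DPA libraries spread widely.

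ATGSTF13 (XLOC_004640), a phi-class glutathione S-transferase, had FPKM of 51.4, 55.0 and 42.9 at 14 DPA and 2.36, 4.20 and 8.63 at 21 DPA, a log2FC of -3.33 (SE 0.42, adjusted p = 9.5e-07). Galactosyl_T (XLOC_020701), with a galactosyltransferase domain, had 11.4, 13.4 and 12.3 at 14 DPA and 0.639, 1.52 and 1.65 at 21 DPA, a log2FC of -2.91 (SE 0.35, adjusted p = 5.5e-07). Both fell in every setting tried. The pair named SCPL51, a serine carboxypeptidase-like protein, lay near the limits of the call. SCPL51 XLOC_014969 had a mean of 8.89 ± 2.09 at 14 DPA and 1.89 ± 1.34 FPKM at 21 DPA (log2FC -2.09, adjusted p = 7.6e-07), and missed the size limit without RD57 21 DPA replicate 1 (-1.98), RD57 21 DPA replicate 2 (-1.78) or RD57 14 DPA replicate 2 (-1.94). SCPL51 XLOC_032233 had 1.57, 1.55 and 1.43 FPKM at 14 DPA and was listed at 0 at 21 DPA. Its call was lost without RD57 14 DPA replicate 1 (-1.99), and both calls were lost under quantile normalisation and with a pseudocount of 1, that of XLOC_032233 also under median-ratio scaling (-1.99).

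The most extreme genes, among those without a filled value, carry identifiers only. XLOC_034566 rose most of the genes above 0: its FPKM was 4.92, 2.85 and 0.908 at 14 DPA and 619, 424 and 164 at 21 DPA, a mean 139.1-fold higher (log2FC 6.90, SE 0.77, adjusted p = 2.1e-07). It was listed at 0 at 7 DPA and had a mean of 233 ± 35 FPKM at 28 DPA (SD, n = 3). XLOC_011072 fell most of the genes above 0: 280, 479 and 751 FPKM at 14 DPA became 3.86, 4.89 and 17.9 at 21 DPA (log2FC -5.94, SE 0.50, adjusted p = 5.1e-09), after a mean of 1189 ± 129 at 7 DPA. XLOC_040314 was the most abundant gene to reach 0, with FPKM of 2127, 12102 and 4248 at 14 DPA and 0 in the 3 libraries of 21 DPA. XLOC_003303 was the most abundant to leave 0, with 115, 141 and 98.6 FPKM at 21 DPA and 169 ± 54 (SD, n = 3) at 28 DPA.

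Most genes that reached or left 0 were of low abundance. The 2867 genes reaching 0 had a median of 1.60 FPKM at 14 DPA with quartiles of 1.02 and 2.93, and 24.1% had a mean under 1 FPKM. Only 118 of them (4.12%) had a mean of 10 FPKM or more, and 5 of 100 or more. The 1732 genes leaving 0 were lower still, with a median of 1.14 FPKM at 21 DPA, 41.6% under 1 FPKM and 24 (1.39%) at 10 FPKM or more. Of the genes reaching 0, 1449 were called lower, and of those leaving 0, 560 were called higher. With a pseudocount of 0.5, a gene compared with 0 reaches a log2FC of 2 at about 1.5 FPKM, so these calls amount to a limit on level. Genes just inside the limit of 0.5 FPKM were found beside them: 1016 genes stayed above 0 in all 6 libraries with a 21 DPA mean under 1 FPKM, of which 121 had a 14 DPA mean of at least 5 FPKM. In the other direction, 873 genes had a 14 DPA mean under 1 FPKM, and 46 of these had a 21 DPA mean of at least 5.

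**Figure D4:**
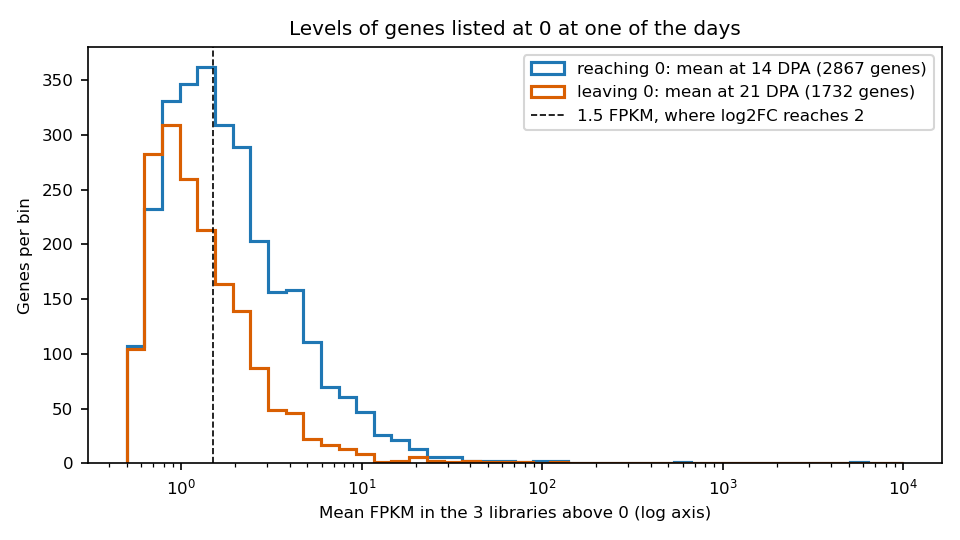
Number of genes per bin (vertical) by mean FPKM in the 3 libraries above 0 (horizontal, log axis), for the 2867 genes reaching 0 (level at 14 DPA) and the 1732 genes leaving 0 (level at 21 DPA). Both distributions lie near 1 FPKM, with medians of 1.60 and 1.14, and the dashed line marks 1.5 FPKM.

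The classes were then followed in the libraries that had not defined them. Of the genes reaching 0, 70.1% were above 0 in RD57 at 7 DPA and 9% at 28 DPA. Of the genes leaving 0, 28.7% were above 0 at 7 DPA and 77.4% at 28 DPA. The genes above 0 in all 6 were above 0 at 7 DPA in 95% and at 28 DPA in 91.9% of cases. Within the latter class, the 1685 genes that fell had a median of 27.7 FPKM at 7 DPA and 1.48 at 28 DPA, where 554 of them (32.9%) were listed at 0. The 760 that rose had a median of 2.70 FPKM at 7 DPA and 29.8 at 28 DPA, and none of them was at 0 at 28 DPA. Genes of higher level were followed in the same way: of 339 genes reaching 0 from a mean of at least 5 FPKM, 84.7% were above 0 at 7 DPA and 9.14% at 28 DPA, and of 69 leaving 0 to at least 5 FPKM, 91.3% were above 0 at 28 DPA.

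**Figure D5:**
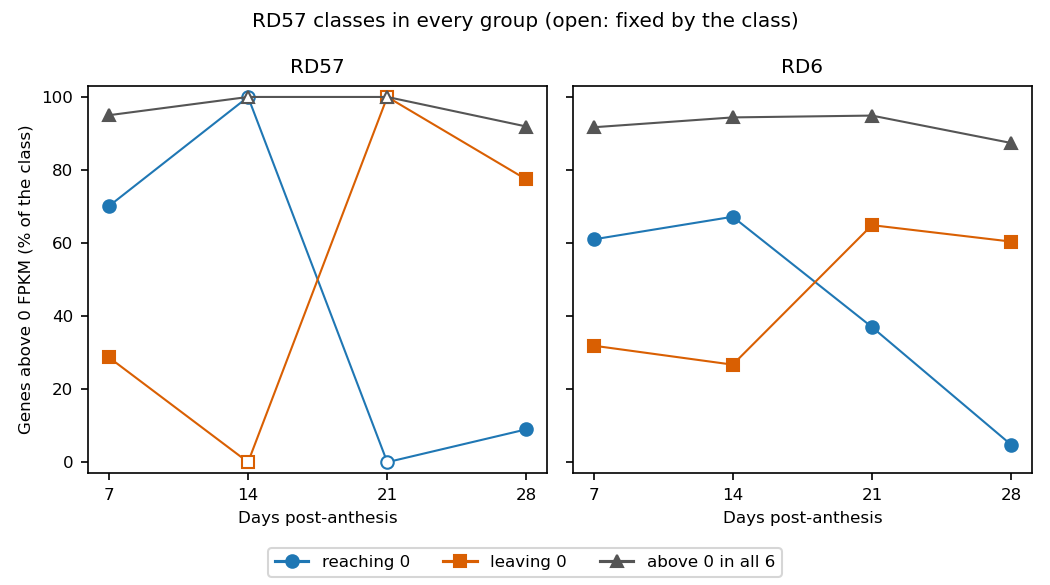
Percentage of genes of each RD57 class that were above 0 FPKM (vertical) at 7, 14, 21 and 28 DPA (horizontal), in RD57 (left) and RD6 (right). Open symbols are fixed by the definition of the class, and filled ones are not: in RD6 the genes reaching 0 go from 67.2% above 0 at 14 DPA to 37.0% at 21 DPA, and the genes leaving 0 from 26.7% to 64.9%.

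RD6 shares no library with the 6 compared here, but both cultivars entered the same fit. Their calls thus share each gene's estimate of the spread and are not independent tests. The change of RD6 from 14 to 21 DPA gave fewer calls: 1508 genes were lower (5.72% of those tested) and 999 higher (3.79%). Of the 1685 genes above 0 that fell in RD57, 579 (34.4%) were called lower in RD6 and 3 higher, where 4.45% of all 18504 genes above 0 were called lower in RD6. The RD6 mean was lower at 21 than at 14 DPA for 95.5% of the 1685, against 51.9% of the 18504. Of the 760 that rose, 371 (48.8%) were called higher in RD6 and none lower, beside 3.39% of the 18504. Of the 2867 genes reaching 0 in RD57, 977 (34.1%) also reached 0 in RD6, as did 7.16% of all genes, while 950 (33.1%) stayed above 0 at both days of RD6. Of the 1732 leaving 0, 715 (41.3%) left 0 in RD6 as well, beside 6.60% of all genes. The shares of all genes are not matched for level. Of the genes at 0 in all 6 RD57 libraries, 17.4% reached 0 and 16.8% left 0 in RD6. Of those above 0 in all 6, 1.56% and 1.98% did so.

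The difference of the change between the cultivars was tested by the interaction of cultivar and day. It passed an adjusted p of 0.05 in 7477 genes, 28.4% of those tested, with the RD57 change more negative in 4248 and more positive in 3229. Of the 26 named genes, 4 passed, and in each the RD57 change was more negative. ATGSTF13 had means of 7.04 ± 3.29 FPKM at 14 DPA and 2.66 ± 0.94 at 21 DPA in RD6 (SD, n = 3), a log2FC of -1.19 against -3.33 in RD57 (adjusted p of the difference 0.0091). Galactosyl_T had 20.9 ± 5.8 and 9.43 ± 3.04 FPKM in RD6, a log2FC of -1.11 against -2.91 in RD57 (adjusted p = 0.0088). The others were zf-RING_2 and SCPL51 XLOC_032233, both listed at 0 in RD57 at 21 DPA. GBSSI, the Waxy gene, had means of 7381 ± 1554 FPKM at 14 DPA and 598 ± 352 at 21 DPA in RD6. Its log2FC was -3.81 in RD6 (adjusted p = 2.8e-04), a call it did not reach in RD57, but the difference of 1.97 between the cultivars (SE 1.08) did not pass (adjusted p = 0.20). That SE came from all 24 libraries, in which the mean of GBSSI in RD6 at 28 DPA was 191 ± 286 FPKM (SD, n = 3). All 3 RCAR3-like genes were called lower in RD6 as well. There XLOC_026735, XLOC_026739 and XLOC_026741 had log2FC of -2.13, -2.23 and -2.08 (adjusted p of 0.0029, 0.0014 and 0.011). Their differences between the cultivars were -1.24, -1.82 and -2.19 and did not pass (adjusted p of 0.28, 0.082 and 0.092).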

How the data were processed

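Grain RNA of 8 groups (2 cultivars by 4 days) with 3 libraries each was sequenced from TruSeq Stranded mRNA libraries. Reads were cleaned by the authors (Fastp, Trimmomatic, SortMeRNA) and aligned with HISAT2 to the indica genome. Transcript models came from Cufflinks, merged by Cuffmerge, and the deposited FPKM came from Cuffquant and Cuffnorm, summed per gene. Values under 0.5 FPKM had been dropped, detection in at least 2 replicates was needed, and the mean took the place of a missing replicate. The smallest deposited FPKM above 0 was 0.50. A value was taken as filled when it equalled the mean of the other replicates within a relative 1e-06. Groups and replicate numbers came from the sample titles. Whether the 3 biological replicates were separate plants or pools was not stated in the sources used here. The study states mapped reads per library, but the depth behind each gene's value is not in the table and FPKM keep no counts, so no count model was used.

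FPKM were taken as log2(FPKM + 0.5) and fitted with limma 3.58.1 (R 4.3.3; lmFit and eBayes with trend, 8 group means, all 24 libraries), with Benjamini-Hochberg adjustment over 26362 genes. The study's criteria (adjusted p of at most 0.05, log2FC of at least 2 in size) were kept. A fold on this scale understates the change of low genes. Shares of summed FPKM were compared with exact permutation tests over 3 against 3 libraries. Summaries and plots were made with pandas 2.3.3 and matplotlib 3.10.9. The fit was tested on simulated data. Named genes were every gene whose name and identifier could be read from the study's labels (26). To these were added, among genes called without a filled value, the largest rise and fall of those above 0 in all 6 libraries, the most abundant to reach 0 and the most abundant to leave 0. A misread digit would give another gene. The members and lists were chosen with earlier results of these data known. Alternatives were 2 other pseudocounts, a smaller fold limit, 3 gene filters, 2 scalings, a fit to the 6 libraries alone, a replicate block and leaving out each library. Gene coordinates and sequences were not used here.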

Additional observations from a re-analysis of the deposited data

Results flagged for a closer look

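Among the genes named above, 6 changed differently from 14 to 21 DPA in RD57 than in RD6 by the test of the interaction (limma, adjusted p over all genes, 28.4% of which passed). The values are the log2FC of RD57 minus that of RD6. ATGSTF13 XLOC_004640 differed by -2.14 (SE 0.59, adjusted p = 0.0091), Galactosyl_T XLOC_020701 by -1.80 (SE 0.50, adjusted p = 0.0088) and XLOC_011072 by -2.44 (SE 0.71, adjusted p = 0.013). In XLOC_011072 the means were 515 ± 144 and 52.8 ± 34.4 FPKM (SD, n = 3) at 14 and 21 DPA in RD6, against 503 ± 236 and 8.88 ± 7.81 in RD57.

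The other 3 were listed at 0 in RD57 at 21 DPA, so that the size of their difference depends on the pseudocount. zf-RING_2 XLOC_004080 differed by -2.28 (adjusted p = 0.0066), with means of 7.62 and 2.58 FPKM in RD6, and SCPL51 XLOC_032233 by -1.55 (adjusted p = 0.020), with 2.82 and 2.27 FPKM in RD6. XLOC_040314 differed by -13.22 (adjusted p = 1.6e-13). This gene was listed at 0 in RD6 at both 14 and 21 DPA, although its mean at 7 DPA was 1760 ± 201 FPKM in RD6 and 5353 ± 2564 in RD57 (SD, n = 3), and its 14 DPA values in RD57 spread from 2127 to 12102 FPKM.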

How the results depend on the processing

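No result reversed. The 4454 calls (1320 higher, 3134 lower) became 7499 (2697 and 4802) with a pseudocount of 0.1, 2900 (791 higher) with 1, 12146 (4948 and 7198; 7552 above 0 in all 6, in place of 2445) with a log2FC of at least 1, and 2446 (760 and 1686) when only genes above 0 in all 6 were tested. The classes shrank to 1714 genes reaching and 893 leaving 0 with 1 FPKM as the limit, 1711 and 1091 without filled values, and 1131 and 379 with a mean of at least 2 FPKM. Counts under the other alternatives stayed within 1.5 times. Leaving out a library gave 4202 to 4857 calls (1249 to 1491 higher, 2928 to 3366 lower, 2213 to 2804 above 0 in all 6). With the replicate block, 4453 genes were called (1319 higher, 3134 lower). Deviations of same-numbered libraries correlated at 0.072, -0.03 and 0.081, and those of other pairs at -0.113 to 0.058. Replicates 1 and 3 correlated best with their own number and replicate 2 did not. Correlations this small, from 3 libraries a day, cannot decide whether the numbers pair the samples. Of 472 values of the 30 named genes under alternatives, 443 kept their side of the threshold, 22 (of 5 genes) were no longer past it and 7 (of 3 genes) came past it. The cause was not tested.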
